A study of Caenorhabditis elegans with 2 samples.

Results

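The subject is 10 genes of Caenorhabditis elegans that encode subunits of the vacuolar proton pump (V-ATPase), namely vha-1, vha-2, vha-3, vha-5, vha-6, vha-7, vha-8, vha-12, vha-13 and vha-15. They were taken by name, 10 of 19973 nuclear protein-coding genes, and each was read over a window from 2000 bp upstream of its most upstream annotated 5' end to its gene end. All 10 were found in the annotation, with windows of 2486 to 12191 bp. Regions bound in chromatin immunoprecipitation followed by sequencing (ChIP-seq) against MDL-1, a Mad-like transcription factor with a basic helix-loop-helix leucine zipper, were placed in these windows by their summits. The worms were whole fourth-stage larvae (L4) of strain OP355, genotype unc-119(tm4063) III; wgIs355, pooled male and female, with an insertion for mdl-1. The labels give their age as unknown. There were 2 biological replicates in 1 group, with no second genotype, stage or treatment, and sonication sheared the chromatin. A note in the labels names KLU-1 as the protein that carries a GFP-FLAG tag at its C-terminus, while the antibody, strain and description labels name MDL-1, so the protein that was pulled down rests on labels that differ. Signal from whole worms cannot be assigned to a tissue.

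The V-ATPase uses ATP to move protons into lysosomes, endosomes and other compartments, and in some cells across the plasma membrane. Its outer V1 sector splits ATP, and its membrane V0 sector carries the protons through a ring of proteolipid c subunits that turns against the a subunit. In the worm several subunits are encoded by more than 1 gene, and a-subunit genes are used in different tissues. In mammals many of these genes carry sites for basic helix-loop-helix factors of the MiT/TFE family, which read the E-box CACGTG or longer forms of it. Max-partnered proteins such as Mad also bind CACGTG.

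4 of the 10 genes had a reproducible peak in the window: vha-12 and vha-13, which encode the B and A subunits of the ATP-splitting head, and vha-1 and vha-2, which encode proteolipids. Over all protein-coding genes 4.94% had 1. The peaks numbered 3, because vha-1 and vha-2 shared 1. Reproducible here means the authors' "optimal" list of 1115 peaks, which were the 1115 regions of highest signal among the 30000 candidates of the pooled replicates. A candidate of any strength lay in the windows of 8 genes, against 62.9% of all genes, and vha-6 and vha-7 had none. Rank 1 is the strongest region by the signal the authors' caller gave it, and the best pooled rank had a median of 1847 over the 10 genes and of 19278 over all genes, with a gene that had no region counted as rank 30001. The median window was 4198 bp for these genes and 4027 bp for all. Because the genes were chosen with results of these data known, no test was made on these counts.

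**Figure D1:**
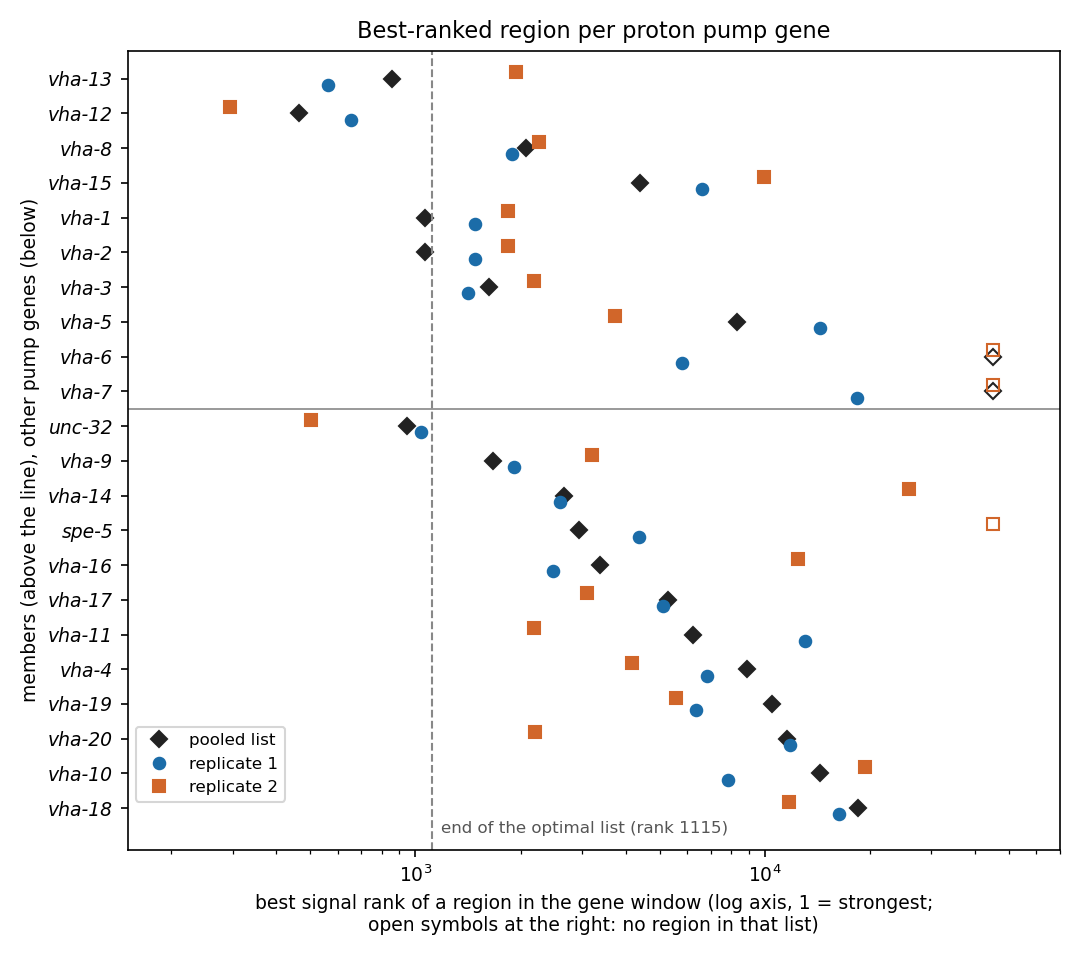
Best signal rank in each gene window (log axis, 1 is strongest) for the 10 subunit genes above the horizontal line and 12 other pump genes below it, in the pooled list (diamonds), replicate 1 (circles) and replicate 2 (squares). The dashed line is rank 1115, where the optimal list ends; open symbols at the right edge mark genes with no region in that list. The pooled diamonds of vha-12, vha-13, vha-1 and vha-2 lie left of the line, and in the lower part only that of unc-32 does.

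Sequences at 5 places are printed because the results below turn on them. They are the summits of the reproducible peaks of vha-12 and vha-1, the promoter shared by vha-8, the GA repeat beside the vha-13 summit and the E-box upstream of vha-3. All are RefSeq sequence of the WBcel235 (ce11) build, 5' to 3'. Capitals mark GAGAGA or its reverse complement TCTCTC, and CACGTG in vha-3; the vha-1 window has no capitals because it holds neither.
vha-12, chrX:4190651-4190751, plus strand: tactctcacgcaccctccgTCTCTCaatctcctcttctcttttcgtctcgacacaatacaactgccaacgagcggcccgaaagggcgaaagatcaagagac
vha-1, chrIII:9780789-9780889, plus strand: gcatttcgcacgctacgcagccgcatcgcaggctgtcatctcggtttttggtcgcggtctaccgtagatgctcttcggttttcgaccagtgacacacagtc
vha-8, chrIV:6790639-6790759, plus strand: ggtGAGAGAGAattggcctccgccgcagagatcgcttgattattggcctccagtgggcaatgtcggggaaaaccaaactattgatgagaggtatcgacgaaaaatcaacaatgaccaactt
vha-13, chrV:14351188-14351217, plus strand: ccacggccacgcTCTCTCtatctgctctct
vha-3, chrIV:2316223-2316252, minus strand: atttccaggtagCACGTGctattttataca

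The strongest region of the 10 genes in the pooled list and in replicate 2 was upstream of vha-12, the B subunit of V1; in replicate 1 that of vha-13 ranked ahead of it. Its summit lay 393 bp upstream of the 5' end in intergenic DNA (chrX:4190503-4190898, ce11), with a pooled signal of 80.1 and rank 463. The overlapping region had a signal of 44.8 and rank 653 in replicate 1, and a signal of 37.7 and rank 295 in replicate 2. Both replicates thus placed it among their 1115 strongest regions, and their summits stood 39 bp and 2 bp from the pooled one. No other protein-coding 5' end was nearer, and no other gene had this summit within 1000 bp upstream to 200 bp downstream of a 5' end. Of all genes, 2.09% had a region as strong or stronger.

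The vha-12 window held 4 weaker pooled regions as well. Their ranks were 7764, 8381, 14859 and 20331, with signals of 20.2, 19.6, 15.7 and 13.6. Those at ranks 7764 and 14859 had summits in coding exons, 701 bp and 1501 bp downstream of the 5' end, and the other pair lay 1458 bp and 1257 bp upstream. In replicate 2 the overlapping regions of the first 3 ranked 27496, 29210 and 9009, and the last had none. These weaker regions are far below the promoter peak in every list.

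vha-13, which encodes the catalytic A subunit, had the next strongest peak. The summit lay 543 bp upstream of the 5' end (chrV:14350968-14351363), with a pooled signal of 56.6 and rank 858. The replicates ranked it differently: 563 with a signal of 49 in replicate 1, and 1936 with a signal of 16.2 in replicate 2. In replicate 2 a further region overlapping the same peak, of rank 3046, lay 242 bp upstream. The summits of both replicates fell inside the 3' UTR of cept-2, a choline/ethanolamine phosphotransferase gene that ends 226 bp before vha-13 on the same strand. Summits in a 3' UTR made up 1.61% of all optimal peaks. Worm genes at such short spacing can be transcribed together and separated by trans-splicing, but operons were not annotated in the sources used here.

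A second region of the vha-13 window lay at the other end of the gene. It ranked 1848 with a signal of 37.3, and its summit was in the 3' UTR of vha-13, 2598 bp downstream of the vha-13 5' end and 103 bp upstream of that of Y49A3A.3. It ranked 3393 in replicate 1 and 8007 in replicate 2. By position it is nearer to the start of the next gene than to that of vha-13. The third region, rank 16911, lay in an intron.

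vha-8 encodes the E subunit, part of the stalk that holds the head in place. Its best region fell outside the optimal list, at rank 2067 with a signal of 35.4, and lay 375 bp upstream (chrIV:6790501-6790896). The overlapping regions ranked 1890 (signal 25.4) in replicate 1 and 2259 (signal 15.2) in replicate 2. Both ranks were close to the pooled one, and the summits were 2 bp and 145 bp from the pooled one. This intergenic stretch is shared: C17H12.2, on the opposite strand, starts 586 bp from vha-8, and the summit was 211 bp upstream of its 5' end. A region of rank 25746 lay in the vha-8 3' UTR.

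vha-15, for the regulatory H subunit, was weaker again. Its 3 pooled regions lay 661, 230 and 453 bp upstream, at ranks 4399, 14317 and 27967. The strongest had a signal of 25.2 and overlapped regions of rank 8123 in replicate 1 and 9946 in replicate 2. The replicate 1 region at the second place ranked 6621, better than at the first. A region as strong as the best of vha-15 was found in 16.6% of all genes.

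The proteolipid genes vha-1 and vha-2 lie in tandem on chromosome III, 400 bp apart on the same strand, and have been described as an operon. Their shared peak lay 415 bp upstream of vha-1 and 1325 bp upstream of vha-2 (chrIII:9780641-9781036), with a pooled signal of 49.5 and rank 1067, close to the end of the optimal list, whose lowest signal was 48.2. It ranked 1482 (signal 28.7) in replicate 1 and 1845 (signal 16.5) in replicate 2, and was among the 1115 strongest of neither. Of the 1115 optimal peaks, 39 (3.5%, exact 95% interval 2.5% to 4.75%) were strong in neither replicate, and 1 of the 1115 ranked worse than it in both. That 3.5% takes in peaks of every pooled rank and was not matched to the rank of this peak. Peaks strong in neither replicate gathered toward the weak end of the list, where this peak lies, and none was among the 557 strongest. The share therefore does not set this peak apart from others of similar rank.

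The gene on the other side of that peak is sqv-3, a galactosyltransferase gene of glycosaminoglycan synthesis. Its 5' end is 900 bp from that of vha-1 on the opposite strand. The pooled summit was nearer to vha-1, but the summits of replicate 1 and replicate 2 lay 465 bp and 507 bp upstream of vha-1 and 435 bp and 393 bp from sqv-3. The nearest gene therefore changed between the pooled list and the replicates. A weaker region of rank 13019 had its summit in the coding exon of vha-1, 421 bp downstream of the vha-1 5' end and 489 bp upstream of that of vha-2. Of all optimal peaks, 22.6% lay in the windows of 2 or more genes.

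The third proteolipid gene, vha-3, had its best region at rank 1627 with a signal of 39.8. That summit was 1080 bp upstream of vha-3 (chrIV:2316827-2317222) but 22 bp downstream of a 5' end of Y38F2AL.12 on the opposite strand, in the 5' UTR of that gene. It ranked 1412 (signal 29.5) in replicate 1 and 5526 (signal 11.1) in replicate 2. A second region, 321 bp upstream of vha-3 and 307 bp upstream of Y38F2AL.12, was weak in the pooled list at rank 18141 with a signal of 14.4. In replicate 2 it ranked 2185 with a signal of 15.5, and replicate 1 had no region there. The replicates thus put their best region of this promoter at different places. vha-11, which encodes the C subunit and lies 892 bp downstream on the same strand, has been described as sharing an operon with vha-3; the window of vha-11 also took in the replicate 2 region.

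**Figure D2:**
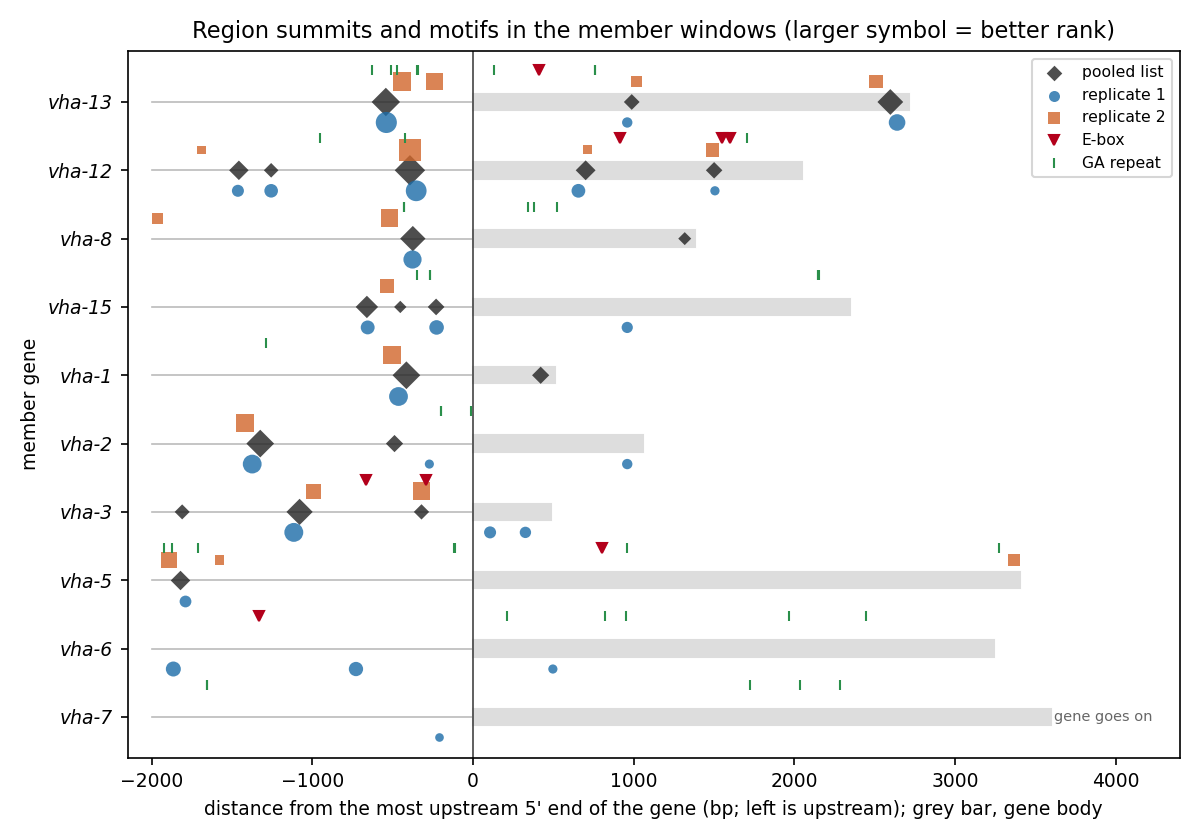
Summits of regions in each gene window by distance from the most upstream 5' end (bp, left is upstream), with the gene body as a grey bar; diamonds are pooled regions, circles replicate 1 and squares replicate 2, larger where the rank is better. Red triangles mark E-boxes and green ticks GA repeats, drawn above each gene. All 3 lists place a large symbol 354 to 393 bp upstream of vha-12, while vha-6 and vha-7 carry small circles only; a vha-7 region 5006 bp downstream and a GA repeat at 6928 bp are beyond the axis.

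Counted by summits in the window, the listed a-subunit genes had the weakest regions of the 10 in the pooled list. vha-5, an apical-membrane isoform of epidermal and excretory tissue, had 1 pooled region, at rank 8325 with a signal of 19.7, 1825 bp upstream and nearest to the 5' end of F35H10.5. The overlapping regions ranked 14445 in replicate 1 and 3732 in replicate 2. Replicate 2 also held a region of rank 12624 with its summit in the 3' UTR of vha-5. That region overlapped a pooled region of rank 2471, whose own summit lay outside the vha-5 window and was not counted. vha-6, the intestinal isoform, had no pooled region. Replicate 1 held 3 regions in its window, of ranks 5797, 7232 and 25746, and replicate 2 held none; the best lay in the 5' UTR of VW02B12L.2, the gene 724 bp upstream on the same strand. vha-7 likewise had no pooled region, and replicate 1 alone held 2 in its window, of ranks 18376 and 28551, the first in an intron. It had the longest window, 12191 bp, and its 5' end is 1051 bp from that of C26H9A.3 on the opposite strand. The nearest optimal peaks to the 6 genes without 1 were 22548 bp (vha-15) to 96316 bp (vha-3) from their 5' ends.

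The 10 windows together held 19 distinct pooled regions, 13 with summits upstream of a listed gene and 6 in a gene body. Of the summits, 10 were intergenic, 3 were in coding exons, 3 in 3' UTRs, 2 in 5' UTRs and 1 in an intron. Replicate 1 had an overlapping region for 18 of the 19, replicate 2 for 15, and 14 were overlapped in both. A replicate region could be matched more than once, and that of rank 9946 in replicate 2 was the match of all 3 vha-15 regions. The same shares over all pooled candidates were not counted, so these numbers are not read as a trait of the windows. Among the best regions, those of vha-1 and vha-2, vha-3 and vha-8 had the start of another gene near the summit. For vha-12, vha-13 and vha-15 no other gene had the summit within 1000 bp upstream to 200 bp downstream of a 5' end. The vha-13 summit nevertheless fell inside the 3' UTR of cept-2. The windows cover 45.8 kb once overlaps are merged, with 6.55 optimal summits per 100 kb (exact Poisson 95% interval 1.35 to 19.1, counting error only), against 1.11 per 100 kb of the nuclear genome. For all pooled candidates the densities were 41.5 and 29.9 per 100 kb. A gene window holds promoter sequence by construction and the genome does not, and this difference was not tested.

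Fewer of the 10 genes were reached by the 1115 strongest regions of either replicate than by those of the pooled list. Taking the 1115 strongest regions of each replicate, 2 genes (vha-12 and vha-13) had a summit in replicate 1, where 4.91% of all genes did, and 1 gene (vha-12) in replicate 2, where 4.86% did. Of the 3 optimal peaks, only that of vha-12 was among the 1115 strongest regions of both replicates. Over all optimal peaks 717 of 1115 were, or 64.3% (exact 95% interval 61.4% to 67.1%). That share takes in peaks of every pooled rank and was not matched to the ranks of the 3. A region of any strength lay in the windows of all 10 genes in replicate 1, against 64.1% of all genes, and of 8 in replicate 2, against 66.9%. Read depth is unknown, so the signals of different lists were not set against each other, and ranks alone were compared.

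**Figure D3:**
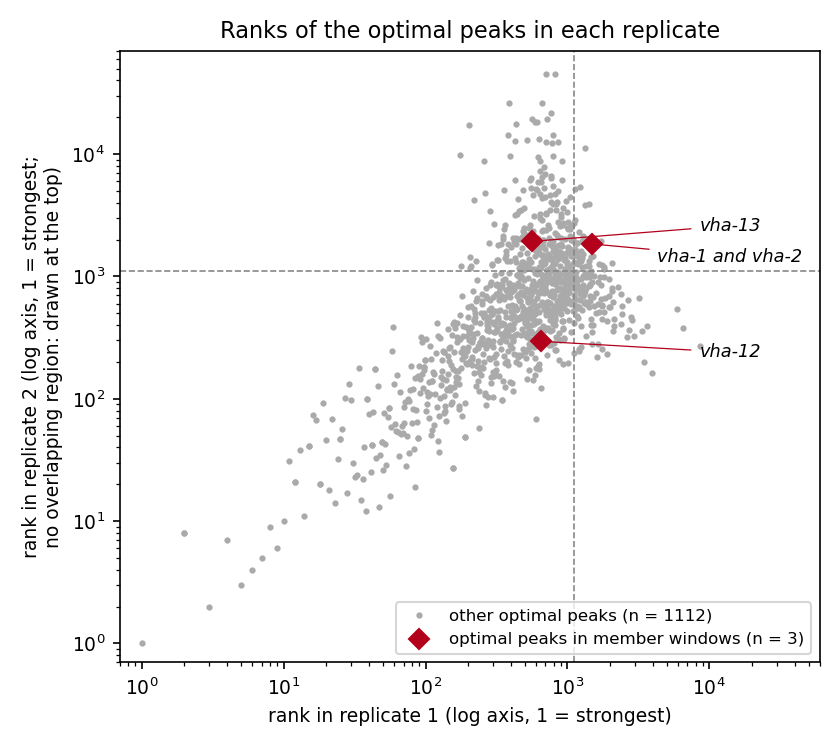
Rank in replicate 1 (x) against rank in replicate 2 (y) for the 1115 optimal peaks, both on log axes with 1 as the strongest; red diamonds are the 3 peaks in the windows of the listed genes, and peaks without an overlapping region in replicate 2 are drawn at the top. Dashed lines stand at rank 1115; the vha-12 peak lies inside both lines, that of vha-13 inside the replicate 1 line only and the shared vha-1 and vha-2 peak outside both.

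None of the 3 reproducible peaks held the E-box CACGTG within 50 bp of its summit. With 3 peaks, the exact 95% interval for that share runs from 0% to 70.8%, so nothing can be read from it. Over all optimal peaks the share was 19.2% and over all pooled candidates 3.57%. GAGAGA, counted on both strands, was within 50 bp of the summits of vha-12 and vha-13, 2 of the 3. It was so for 36.5% of all optimal peaks and 8.71% of pooled candidates. The exact 95% interval for 2 of 3 runs from 9.43% to 99.2% and takes in the share of optimal peaks, so no difference from them is read. The match was centred 29 bp from the summit in vha-12 and 36 bp from it in vha-13. The peak of vha-1 and vha-2 had neither, nor CACGCG, which 10.3% of optimal peaks held. A match is a description of the letters, not a bound site.

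Among the 19 pooled regions, GAGAGA was within 50 bp of 4 summits (21.1%), in the windows of vha-5, vha-12, vha-13 and vha-15. The run printed for vha-8, with matches centred 53 bp and 55 bp from the summit, did not lie wholly within 50 bp and was not counted. CACGTG was within 50 bp of 1 of the 19 (5.26%), in the vha-3 region of rank 18141, centred 29 bp from the summit and 295 bp upstream of the gene; this is the region that replicate 2 ranked 2185. Whole windows held CACGTG in 5 of the 10 genes, 8 copies in all, and in 52.2% of all genes, so the share was near the background. The other copies were 664 bp upstream of vha-3, 1335 bp upstream of vha-6, 805 bp downstream of the vha-5 start, 410 bp downstream of the vha-13 start, and 915, 1551 and 1602 bp downstream of the vha-12 start. The copies downstream of those starts were all in coding exons. The copy at 1551 bp in vha-12 was centred 52 bp from a summit of rank 14859. In the windows of 101 bp around the summits, GC content ranged from 19.8% to 60.4% over the 19 regions with a median of 44.6%, against 33.7% for all pooled candidates and 48.5% for optimal peaks.

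The 12 other pump genes were read over windows set in the same way. Of these, 1 of 12 had an optimal peak, against 4.94% of all genes, and it was unc-32, an a-subunit gene of neurons. Its summit (rank 946, signal 53.4) was 1360 bp upstream of unc-32 but 124 bp upstream of lin-9 on the opposite strand, and it ranked 1037 in replicate 1 and 4438 in replicate 2. A region 113 bp upstream of unc-32 had pooled rank 1402 and signal 43.1, and ranked 503 in replicate 2 and 10170 in replicate 1. All 12 had a pooled candidate, against 62.9% of all genes, and the median best rank was 5760.5. Best ranks were 1670 for vha-9 (F subunit), 2659 for vha-14 (D), 2937 for spe-5 (a sperm B subunit), 3387 for vha-16 (d), 5273 for vha-17 (e) and 6248 for vha-11. They were 8903 for vha-4 (the c'' proteolipid), 10522 for vha-19 and 11603 for vha-20 (accessory subunits), 14372 for vha-10 (G) and 18541 for vha-18 (H). Over all 22 pump genes, 5 had an optimal summit, a count that includes the 4 of the listed genes. The 10 listed genes had been chosen with their peaks known, so the contrast with the other 12 is not independent of that choice.

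Genes for the same subunit differed in pooled rank, except where 1 peak was shared. The H subunit is encoded by vha-15, at rank 4399, and vha-18, at 18541. For the B subunit, vha-12 ranked 463 and spe-5 2937, and spe-5 had no region in replicate 2. Of the proteolipid genes, vha-1 and vha-2 ranked 1067 by their shared peak and vha-3 ranked 1627. vha-4, at 8903, encodes the c'' proteolipid and is not a further gene for the same subunit. The 4 a-subunit genes ran from rank 946 (unc-32) through 8325 (vha-5) to no pooled region (vha-6 and vha-7). The regions behind the ranks of vha-18, vha-3, unc-32 and vha-5 were nearest to the 5' end of another gene, lin-9 in the case of unc-32. The region 113 bp upstream of unc-32 ranked 1402. Single pooled values carry no error, and where replicate ranks cross, as for vha-12 and vha-13 or for vha-1 and vha-3, the order of neighbours is not settled.

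**Figure D4:**
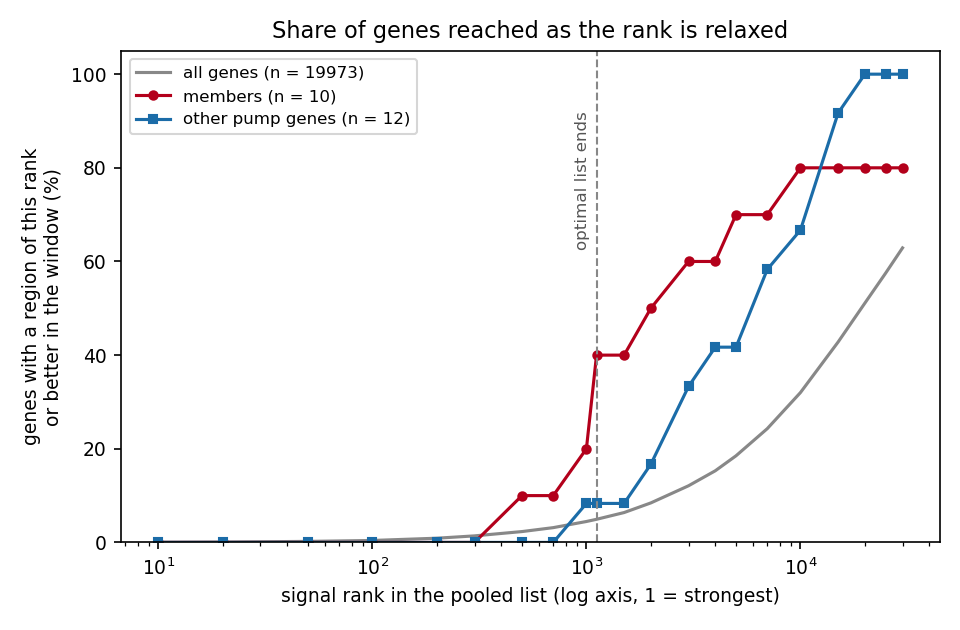
Share of genes (%) with a pooled region of at least a given strength in the window, against signal rank (log axis, 1 is strongest), for the 10 listed genes (red), 12 other pump genes (blue) and all 19973 genes (grey); symbols stand at the ranks where the share was counted. At rank 1115 the shares are 40%, 8.33% and 4.94%, and at rank 30000 they are 80%, 100% and 62.9%.

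Among 14 genes of lysosomal membrane proteins, whose compartment the pump acidifies, 1 had an optimal peak and 12 a pooled candidate, against 4.94% and 62.9% of all genes. Neither count is read as a difference from the background. That peak, in the window of imp-2, an intramembrane protease gene, ranked 319 with a signal of 94.6, and 378 and 330 in replicates 1 and 2. It lay 405 bp upstream of imp-2 but 6 bp from the 5' end of enpl-1, an endoplasmic reticulum chaperone gene. The membrane glycoprotein gene lmp-1 came next, at rank 1572. The median best rank of the 14 genes was 6937.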

How the data were processed

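ChIP-seq of 2 biological replicates was analysed from the authors' deposited peak lists on build ce11: 1 candidate list per replicate, 1 for the pooled replicates and the optimal list. Per notes deposited beside the lists, a replicate list had that replicate's alignment and 1 other file as parents, and the optimal list had the replicate and pooled lists. The sources used here do not give the aligner, caller, versions or reproducibility cutoff. The signal of a region is the authors' caller's value, on its own scale in each list, and was used for ranks within a list. Depth is unknown; intervals cover counting error only. Control libraries and ce10 lists were not used here.

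The 10 genes, 2 further lists (12 other pump genes, 14 lysosomal membrane genes) and 8 motifs were chosen with earlier results of these data known; 1 more motif was added later. Genes named were the 10, the 12, list genes with an optimal summit, genes whose 5' end adjoins an optimal summit of the 10, and their same-strand neighbours within 1000 bp and opposite-strand 5' ends within 2000 bp. F35H10.5, Y49A3A.3, lin-9, enpl-1 and lmp-1 were named outside this rule, after their values were seen. Windows used Ensembl release 115 (WBcel235). Regions were matched at 1 bp of overlap or more, taking the best-ranked, and motifs counted on both strands within 50 bp of a summit. Intervals were exact (binomial or Poisson, 95%). With 1 group no test between samples was made. Placing 200 simulated summits in windows recovered all 200 genes. The same window rule placed and read them, so this checks the code only and not which gene a peak belongs to. Alternatives changed the window, the assignment to genes, the strength needed, the overlap and the motif distance, and left out each replicate. Python 3.11.15 with numpy, pandas and scipy was used.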

Additional observations from a re-analysis of the deposited data

How the results depend on the processing

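The count of listed genes with an optimal summit (4) was 3 with 1000 bp upstream, with 1000 bp upstream to 200 bp downstream of any 5' end, or with the nearest 5' end only, where vha-2 dropped out, and 5 with the 2000 strongest pooled regions, which added vha-3. It was 1 (vha-12) in the 557 strongest optimal peaks, and without replicate 1 or 2 it ran from 1 to 2. Of all genes, 8.44% had 1 of the 2000 strongest pooled regions. The 1115 strongest regions of replicate 2 reached 4.86% of all genes and those of replicate 1 reached 4.91%. Under the narrower windows, the nearest 5' end and the 557 strongest, the share of all genes was not counted. The optimal summits (3) became 1 in the 557 strongest, 5 with the 2000 strongest regions and 1 to 2 without a replicate. Genes with a pooled candidate (8) fell to 5 under the nearest 5' end. Peaks strong in both replicates (1) became 3 with 2 times as many top regions. Other pump genes with an optimal summit (1) became 0 under both narrower windows, the nearest 5' end and the 557 strongest, and 2 with the 2000 strongest. Lysosomal genes (1) became 0 under the nearest 5' end and 2 with the 2000 strongest. The count of optimal summits with CACGTG stayed 0 in each of its 6 alternatives. The median best rank (1847) was 2222 without replicate 1 and 1686 without replicate 2. Of 16 single-gene ranks with a replicate left out, 7 moved by more than the SD of the replicate ranks, those of vha-1, vha-2, vha-3, vha-13 and vha-15. That SD is large where the replicates differ, so a gene left out of this list need not have a stable rank. The rank of vha-5 went from 8325 to 3732 without replicate 1 and to 14445 without replicate 2, and was not counted as moved. No paired analysis was possible because the series holds 1 group. Depth is unknown, so how far it limits the weak regions cannot be said.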
